A study of Homo sapiens with 4 samples.

Results

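EHMT1 and EHMT2 were examined here as a pair: they are the closely related histone methyltransferases also called GLP and G9a. They were selected on measured values, because EHMT1 carried more than 20 peaks in each of the 2 deposited peak lists, so the sizes of those counts are description and support nothing. Every distinct peak position whose deposited gene ID was that of EHMT1 or EHMT2 was kept. There were 22 such HNRNPC peaks of 9107 and 25 such PABPC4 peaks of 63507, or 47 of 72614 positions in both lists together. All 47 lay in EHMT1, and EHMT2 was listed at 0 for both proteins. Both groups of samples came from MDA-MB-231, an established triple-negative breast cancer line of human origin, and the labels named no genetic change or drug. Cells were irradiated with 254 nm ultraviolet light at a dose of 400 mJ per square centimeter. One group held 2 samples immunoprecipitated for HNRNPC, by irCLIP per the labels, and the other held 2 samples immunoprecipitated for PABPC4, by PAPERCLIP. The samples of each protein were pooled by the authors before peaks were called, so the values have no spread between replicates and no test between groups was possible.

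EHMT1 and EHMT2 form a complex that places methyl groups on lysine 9 of histone H3 (H3K9), a mark of silenced genes, and the zinc finger protein WIZ holds the complex on chromatin. HNRNPC is a mainly nuclear protein that binds nascent transcripts, preferably at runs of uridine, and covers antisense copies of the Alu repeat in introns. PABPC4 belongs to the family of proteins that coat poly(A) tails and moves between the nucleus and the cytoplasm. In cross-linking and immunoprecipitation (CLIP), proteins are fixed to the RNA under them by ultraviolet light, and the RNA fragments that come down with the protein are sequenced. Each fragment left after duplicates are removed is called a tag, and the height of a peak is the number of tags at its summit. In PAPERCLIP the reverse transcription is primed with oligo(dT), so that tags lie next to poly(A) tails, and a run of A encoded in the genome can also take up such a primer.

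The reference transcript of EHMT1, EHMT1-203, runs over 217 kb of the plus strand of chromosome 9 (hg38, chr9:137619005-137836127) in 27 exons and encodes 1298 residues. GENCODE lists 52 transcripts of the gene with 41 distinct complete 3′ ends. Peaks of each protein are numbered here from the 5′ end of the gene. By the peak centers, 19 of the 22 HNRNPC peaks lay in introns and 3 in 3′ untranslated region (UTR) segments of short transcripts. Of the 25 PABPC4 peaks, 23 lay in introns and 2 in the 3′ UTR of the last exon. None of the 47 lay in coding sequence or in a 5′ UTR. The HNRNPC intron share of 86.4% (95% Wilson interval 66.7 to 95.3%) stood beside 85.5% of the whole list. The PABPC4 intron share of 92% (75 to 97.8%) stood beside 60.2%, and the PABPC4 3′ UTR share of 8.0% (2.22 to 25%) beside 29.7%. EHMT1 was picked for having many peaks and is long, and these shares were not set against genes of like length or peak number. The intervals on shares and on heights cover counting error only, and tags of 1 peak or peaks of 1 gene are not independent.

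The sequences at the ends of tall peaks are shown first. Of the 6 tallest HNRNPC peaks of EHMT1, 5 had the same 6 bases at or just after their end. Over all 22 the share was 40.9%, beside 37.0% of the list. Each of the following runs holds the last 20 bases of an HNRNPC peak and the 10 bases after it, read 5′ to 3′ on the plus strand of hg38, with the motif GTGTCA, written as DNA, in capitals where present. In peak 16 the motif lies after the end of the peak. The last run, of a tall intron peak without these letters, is given for contrast. Peak 1, with 21 tags like peak 19, and peak 3, with 20, also lacked the motif and are not shown.
HNRNPC peak 16: tcaagttacaaggggtattcaGTGTCAcag
HNRNPC peak 18: tcacttggGTGTCAgccttctcagttcacc
HNRNPC peak 17: ccttgtctgtaGTGTCAgaactcccaggta
HNRNPC peak 19: tcctgaggggtGTGTCAggctgttgcttcc
HNRNPC peak 6: agccaaggaGTGTCAgggacggccagcaga
HNRNPC peak 9: gggccgtgagctGTGTCAgaactctgaacc
HNRNPC peak 2: aagtagctgggattatagttgtgcaccacc

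The next runs are the 30 bases at the end of the 2 last-exon PABPC4 peaks, with the poly(A) signal AATAAA in capitals, and the first 30 bases after a tall PABPC4 intron peak, with its run of A in capitals. They show 2 kinds of sequence at which PABPC4 peaks were listed in this gene. The intron peak ended 6574 nt from the nearest annotated 3′ end. The poly(A) signal is the element that directs cleavage and polyadenylation a short way downstream.
PABPC4 peak 24: aggacaaacacaaAATAAAaaacaaaacac
PABPC4 peak 25: atgaaatcAATAAAaaaaaagaagtacttt
after PABPC4 peak 16: cAAAAAAAAAAAAAAAAAAAAAgagatgct

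The tallest HNRNPC peak of EHMT1 and its runner-up stood in the middle of the gene, and the tallest spanned the 3′ end of a short annotated transcript. HNRNPC peak 16 (chr9:137745534-137745730) reached 134 tags (exact Poisson 95% interval 112 to 159), taller than 99.7% of the HNRNPC list and the 3rd tallest of its 452 peaks in 3′ UTR segments. It began 26 nt before the 3′ UTR segment shared by EHMT1-210 and EHMT1-240 and ran 128 nt past the annotated end of EHMT1-210, so it reached from coding sequence of both transcripts across that end into the longer 3′ UTR of EHMT1-240. Both transcripts start inside the gene and encode the same 126 residues, 9.71% of the length of the full protein. HNRNPC peak 17 (chr9:137746319-137746449) followed after a gap of 588 nt and reached 28 tags (18.6 to 40.5). It also lay in the EHMT1-240 3′ UTR, which is 2405 nt long. HNRNPC peak 18 (chr9:137749112-137749234), the gene's runner-up with 60 tags (45.8 to 77.2), began 1148 nt beyond the end of EHMT1-240 and was an intron peak. All 3 fell in intron 6 of the reference transcript, which is 8.24 kb long, within 3701 nt of each other.

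HNRNPC peak 19 (chr9:137763464-137763571) reached 21 tags (13 to 32.1) in intron 10 of the reference transcript. There it lay 619 nt into the 1913 nt 3′ UTR of EHMT1-221, a transcript that shares the gene's start, stops after 10 exons and encodes 556 residues, or 42.8% of the full length. The position was listed under 2 gene IDs, the second of which had no entry in the gene table used. The heights of these 4 peaks summed to 243 tags. This was 45.5% (41.3 to 49.7%) of the summed height of all HNRNPC peaks of EHMT1, 534 tags. The heights of the 3 that lay in 3′ UTR segments summed to 183 tags, or 34.3% (30.4 to 38.4%). With the reference transcript alone, none of the 22 HNRNPC peaks lay in a 3′ UTR, since each of these segments is intron in EHMT1-203.

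**Figure D1:**
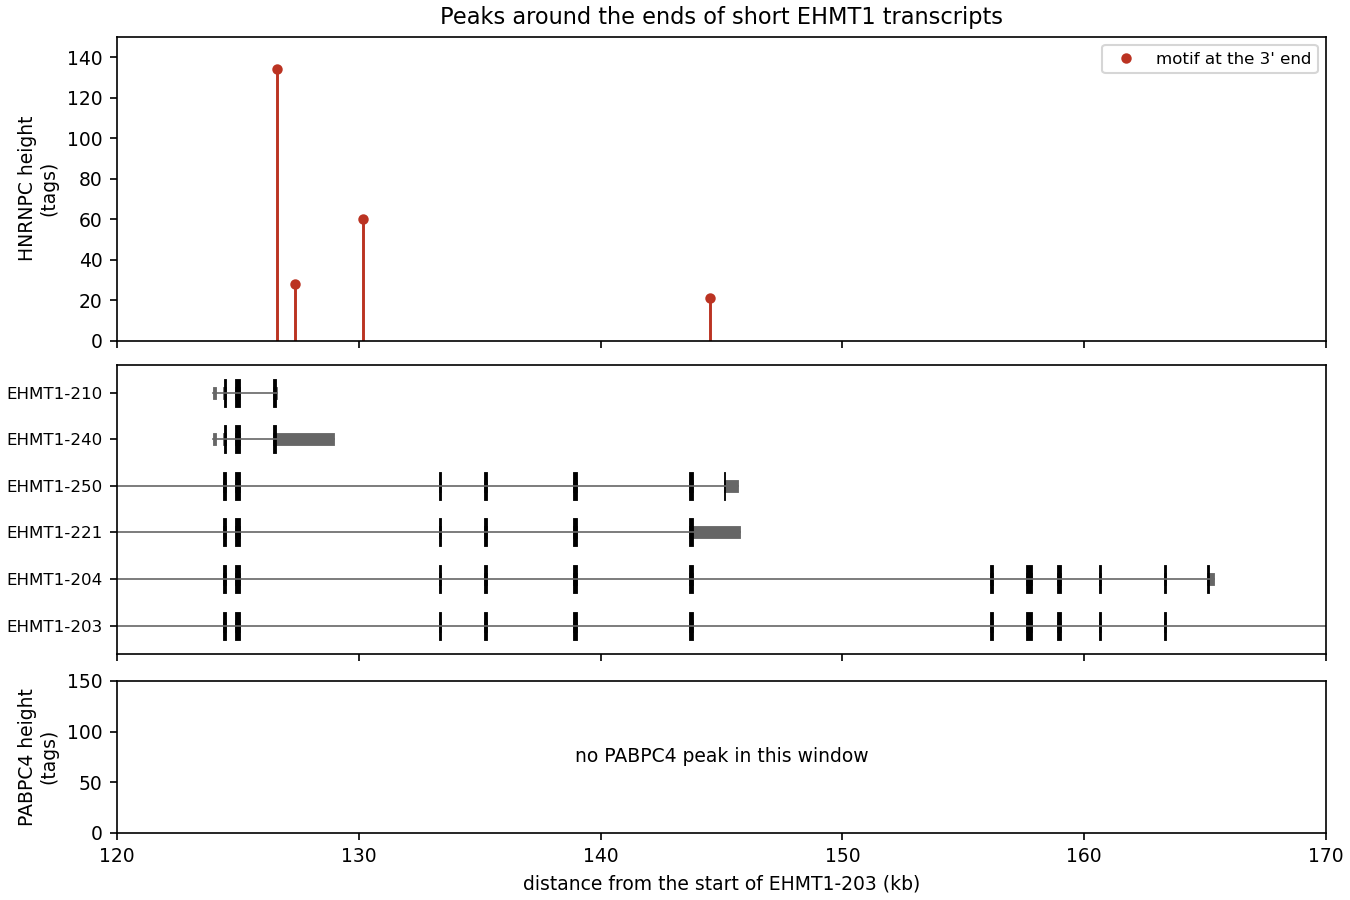
HNRNPC peak heights (top, tags), transcript models (middle: tall black boxes coding, low gray boxes untranslated, lines introns) and PABPC4 peak heights (bottom, tags) against distance from the start of EHMT1-203 in kb. HNRNPC peaks of 134, 28, 60 and 21 tags, all with the GTGTCA motif at their 3′ end, stand across the end of EHMT1-210, inside the 3′ UTR of EHMT1-240, beyond its end, and inside the 3′ UTR of EHMT1-221, and no PABPC4 peak falls in the window.

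No PABPC4 peak was listed at the ends of the short transcripts. The plus strand held no PABPC4 peak at all between peaks 18 and 19, over 54.2 kb (chr9:137738165-137792399), the longest such stretch inside the gene. The next longest was 26.0 kb. This stretch held 4 HNRNPC peaks and 8 of the 41 annotated ends. There were 9 protein-coding EHMT1 transcripts with a 3′ UTR and a complete annotated end, and 7 of them ended more than 10 kb before EHMT1-203, at 7 distinct positions. None of these 7 ends had a PABPC4 peak ending within 50 nt, and the nearest PABPC4 peak end was between 5623 and 26593 nt away. Within 40 nt before the end, 3 of the 7 carried a poly(A) signal: those of EHMT1-204, EHMT1-211 and EHMT1-216. A peak that failed the authors' threshold would not be listed, so the absence is one from the list. Sense Alu-like sequence, in which most PABPC4 intron peaks of the gene lay, made up 2.34% of this stretch and 4.07% of the rest of the gene, and its part in the gap was not tested.

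The 3′ UTR of the last exon held 7 annotated ends, of which 5 had a PABPC4 peak ending within 50 nt: 4 at peak 25 and 1 at peak 24. PABPC4 peak 25 (chr9:137835987-137836124) reached 100 tags (81.4 to 122) and stopped 3 nt before the end of EHMT1-203. PABPC4 peak 24 (chr9:137835677-137835735) reached 43 tags (31.1 to 57.9), stopped 392 nt before that end, and lay 6 nt short of the end of EHMT1-217, a transcript annotated as a retained intron. In each, AATAAA began within the last 22 nt: 22 nt before the end of peak 25 and 17 nt before the end of peak 24. Neither was followed by an A-rich stretch, defined as a run of 6 A, or any 10 nt with 7 A, in the 50 nt that follow the peak. That rule looks only past the peak. Inside both peaks, the printed ends hold a run of at least 6 A that overlaps the poly(A) signal. The distal peak made up 69.9% (Wilson 62.0 to 76.8%) of the summed height of the pair, 143 tags. Together the 2 peaks made up 9.99% (8.54 to 11.6%) of the summed height of all PABPC4 peaks in the gene, 1432 tags. The nearest HNRNPC peak was over 13 kb upstream, at 13461 nt from peak 24, and the 1174 nt 3′ UTR of EHMT1-203 held none.

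**Figure D2:**
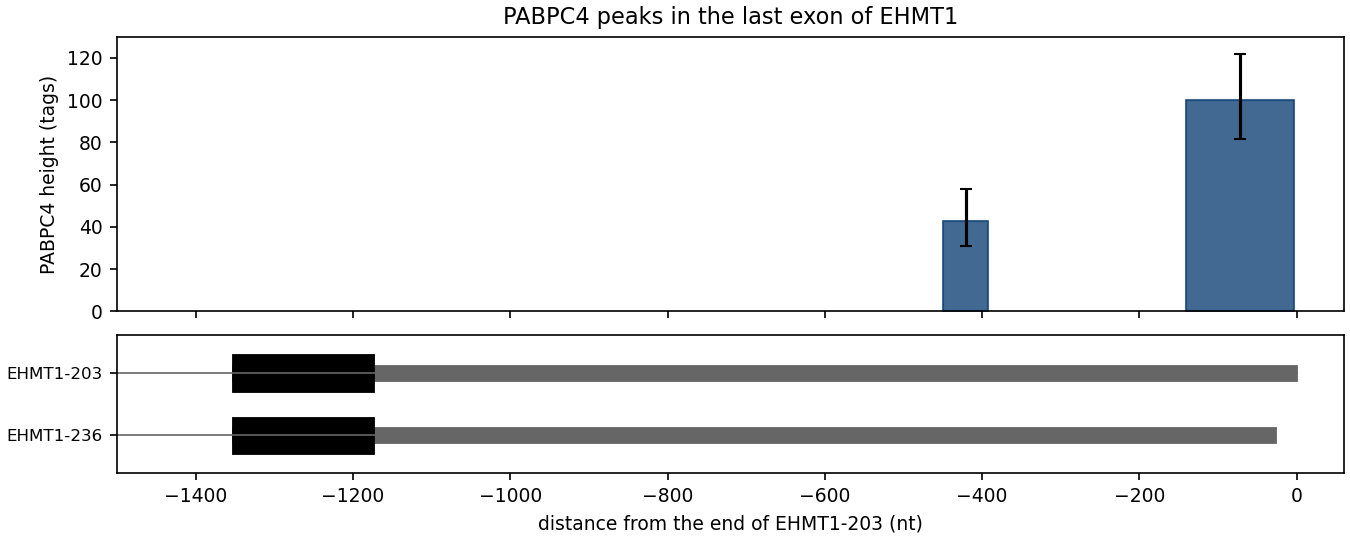
PABPC4 peak heights in tags (top, bars over the peak's extent, whiskers exact Poisson 95% intervals) and the end of EHMT1-203 and EHMT1-236 (bottom, coding black, untranslated gray) against distance from the end of EHMT1-203 in nt. The peaks of 43 and 100 tags stop 392 and 3 nt before that end.

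The remaining HNRNPC peaks were all lower than peaks 16 and 18 and mostly lay in intron 1, which at 91.9 kb held 13 of them. Peak 2 (35 tags) was taller than peaks 17 and 19, and peaks 6 and 9 (24 tags each) were taller than peak 19. A first group, 8.55 to 9.82 kb from the start of the gene, had heights of 21, 35, 20 and 13 tags (peaks 1 to 4). A second, at 19.2 to 22.9 kb, had 12, 24, 11 and 13 tags (peaks 5 to 8). Further along intron 1, peaks 9 and 10 had 24 and 11 tags, and peaks 11, 12 and 13 had 13, 14 and 14. Single peaks followed in intron 2 (11 tags) and intron 3 (12 tags). Past the short-transcript region, intron 18 held peaks of 14 and 15 tags and intron 25 one of 14. The 41.8 kb after peak 19 held no HNRNPC peak, the longest gap in the gene. Densities were counted by introns of the reference transcript, so they include the peaks in 3′ UTR segments of short transcripts. On that basis, intron 6 had 3.64 HNRNPC peaks per 10 kb and intron 1 had 1.41, beside 1.04 over all 26 introns. An HNRNPC peak lay in 7 of the 26. Of the HNRNPC peaks classed as intron peaks with all transcripts, none lay within 300 nt of an annotated exon edge. Their median distance to one was 2795 nt.

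The median HNRNPC peak of EHMT1 was 14 tags high (range 11 to 134) and 128 nt wide (70 to 215 nt), beside a median of 11 tags over the list. The height expected by chance, which the authors computed for each gene, was 0.63 tags for EHMT1, against a median of 0.21 over the list. All 22 were at or above the list's median height, yet the 3 lowest, at 11 tags, carried the authors' p-value of 0.0608 (peaks 7, 10 and 14). Within the gene this p-value rose as height fell, from 0.00351 at 12 tags. Lower peaks could thus have failed the authors' threshold, so the comparison with the list's median is description only. For the 5 tallest, by contrast, the listed p-value was the smallest the list used.

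GTGTCA stood in the last 20 nt of the peak or the 10 nt after it in 9 of the 22 HNRNPC peaks, or 40.9% (23.3 to 61.3%), searched on the RNA strand. The share was 37.0% over the list and 1.01% over all windows of the median peak width along EHMT1. The 6 tallest peaks, with 2 tied at 24 tags in the fifth place, included 5 with the motif. The 9 with the motif had a median height of 24 tags and the other 13 one of 13 tags. Over the list the medians were 13 and 10 tags. What the motif stands for was not tested.

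A run of 5 U lay inside 1 HNRNPC peak of EHMT1 (peak 11, 13 tags), or 4.55% (0.807 to 21.8%), beside 13.3% of the list and 34.4% of all EHMT1 windows of the same width. It lay within the 50 nt before 4 others, or 18.2%, beside 30.5% of the list and 15.5% of such windows. Peak 17 was 1 of these and peak 8 another. The run before peak 8 is shown in capitals in 30 bases of the plus strand that hold it. It begins before the peak, and its last few bases and those printed after it lie inside the peak.
before HNRNPC peak 8: atcacaTTTTTTTTTTTTTTgacatggagt

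Alu-like sequence was found by matching each peak, with 100 nt on each side, to the RN7SL1 and BCYRN1 RNAs, relatives of the Alu repeat. An antisense match was present at 7 HNRNPC peaks, or 31.8% (16.4 to 52.7%), beside 37.0% of the list. Of windows of EHMT1 of 100 nt, not of the peak width, 24.6% had one in or within 100 nt of them. The 7 peaks included 3 of the 4 peaks of the first group in intron 1 (peaks 1, 2 and 3) and peak 17. Only peak 17 had both the antisense match and GTGTCA. Of the others, 8 had the motif alone, 6 the antisense match alone, and 7 had neither. The gene held 87 antisense Alu-like stretches of at least 100 nt, and 6 of them had an HNRNPC peak in or within 100 nt of them.

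**Figure D3:**
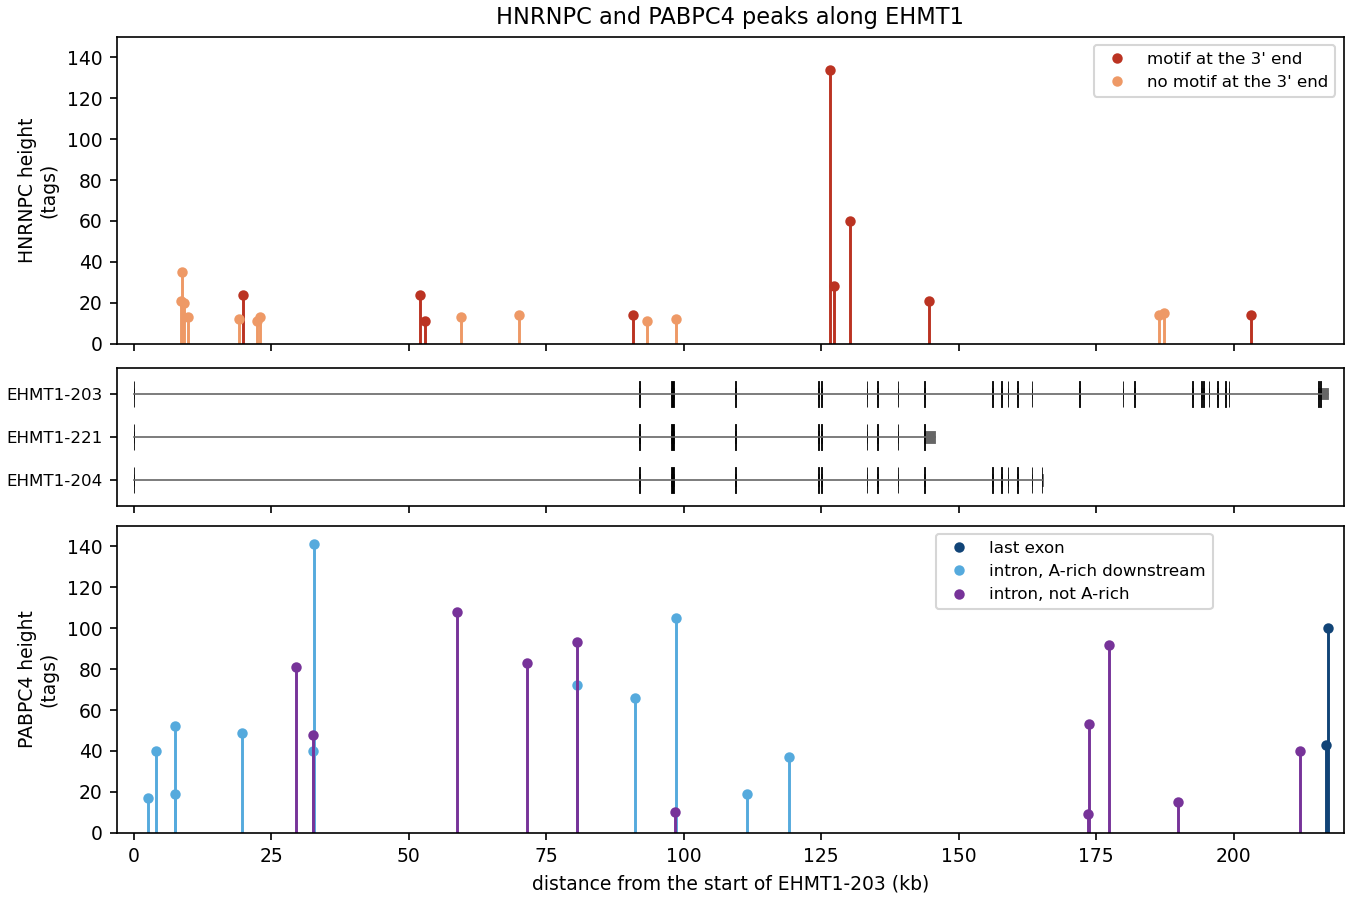
Heights of the 22 HNRNPC peaks (top, tags) and 25 PABPC4 peaks (bottom, tags) at their centers against distance from the start of EHMT1-203 in kb, with 3 transcript models between them (black coding, gray untranslated). Red marks HNRNPC peaks with GTGTCA at the 3′ end, which include the tallest of 134 tags, and the PABPC4 panel is empty for 54.2 kb above the ends of EHMT1-221 and EHMT1-204.

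The PABPC4 intron peaks of EHMT1 were mostly found in sense Alu-like sequence. This held for 20 of the 23, or 87.0% (67.9 to 95.5%), beside 60.6% of all PABPC4 intron peaks. Of windows of EHMT1 of 100 nt, not of the peak width, 9.88% had such sequence in or within 100 nt of them. An A-rich stretch followed 12 of the 23, or 52.2% (33.0 to 70.8%), beside 71.2% of all PABPC4 intron peaks and 10.6% of EHMT1 windows. Among the 23, 10 had both, 10 had the sense match alone, 2 were A-rich alone (peaks 5 and 17), and 1 had neither (peak 23, 40 tags). The genomic A run began with the first base after the peak in 3 of them. A PAPERCLIP peak before encoded A cannot be told apart from one before a poly(A) tail by its position alone.

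Of these intron peaks, PABPC4 peak 9 was the tallest in the gene, with 141 tags (119 to 166), and was followed by A-rich sequence. Peak 10 (108 tags, 88.6 to 130) had no A-rich stretch within 50 nt, while peak 16 (105 tags, 85.9 to 127) was followed by a run of A that began at its 2nd base downstream. The other intron peaks of the 14 in intron 1 had between 17 and 93 tags. Intron 3 held peaks of 10 and 105 tags and intron 4 peaks of 19 and 37. Intron 16 held peaks of 9, 53 and 92 tags, intron 18 one of 15 and intron 25 one of 40. Heights of A-rich and other intron peaks overlapped, with medians of 44.5 and 53.0 tags. The gene held 35 sense Alu-like stretches of at least 100 nt, of which 12 had a PABPC4 peak in or within 100 nt and 5 had more than 1.

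A poly(A) signal lay in the last 40 nt of 1 PABPC4 intron peak, peak 8 (chr9:137651611-137651658, 48 tags), against 6.39% of all PABPC4 intron peaks. Peak 8 lay in sense Alu-like sequence in a group with peaks 7 and 9. No intron peak ended within 50 nt of an annotated 3′ end of any transcript on its strand, and the closest was 189 nt away (peak 19, 9 tags). Over both classes, 3 of 25 PABPC4 peaks of EHMT1 had the signal, or 12% (4.17 to 30%), beside 19.4% of the list and 2.41% of windows of EHMT1. The median PABPC4 peak of the gene was 49 tags high (range 9 to 141) and 47 nt wide (18 to 138 nt), beside a list median of 38 tags.

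On the same strand, 0 of 22 HNRNPC peaks of EHMT1 had a base in common with one of PABPC4 (Wilson 0 to 14.9%). Over all 8982 HNRNPC peaks in genes with a PABPC4 peak the overlap was 0.957%. The absence of overlap in EHMT1 is thus no departure from the list. The median gap to the nearest PABPC4 peak was 2304 nt (range 13 to 25299 nt) for EHMT1 and 3824 nt over those 8982. Of the 22 HNRNPC peaks, 4 lay within 500 nt of a PABPC4 peak, beside 9.11% of the 8982. HNRNPC peak 15 (12 tags, intron 3) began 13 nt after PABPC4 peak 16 (105 tags), inside the A run printed above. HNRNPC peak 6 (24 tags) began 46 nt after PABPC4 peak 5 (49 tags), and HNRNPC peak 5 (12 tags) ended 424 nt before it. HNRNPC peak 13 (14 tags) ended 196 nt before PABPC4 peak 14 (66 tags). All of these PABPC4 peaks were followed by A-rich sequence, and at HNRNPC peaks 16 to 19 the gap was 7369 nt or more.

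EHMT2 had no peak of either protein, and this could not be read as a property of the gene. Its reference transcript spans 17.9 kb of the minus strand of chromosome 6 (chr6:31879759-31897698) and encodes 1210 residues. The gene lies in a stretch of 5.13 Mb (chr6:28442030-33572552) that held 0 peaks of HNRNPC or PABPC4 on either strand. The gene table placed 172 protein-coding genes in it, and none had a peak under its gene ID. Among them, picked after the stretch was seen, were TUBB, a tubulin, RPS18, a ribosomal protein, and DDX39B, an mRNA export helicase, which dividing cells use widely. The 5 Mb before the stretch held 7 HNRNPC and 87 PABPC4 peaks with 102 protein-coding genes, and the 5 Mb after it held 45 and 309 with 63. No other stretch without peaks held as many protein-coding gene starts: the next had 60, over 3.12 Mb of chromosome 17. Why the stretch is empty in the lists was not tested.

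**Figure D4:**
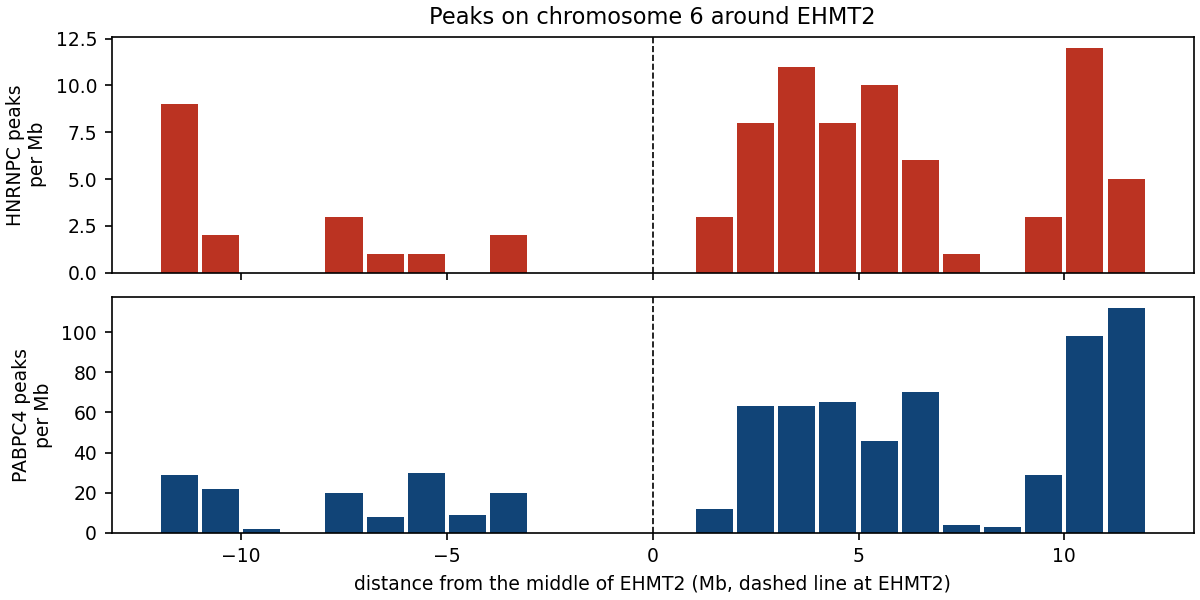
Number of HNRNPC (top) and PABPC4 (bottom) peaks per Mb of chromosome 6 against distance from the middle of EHMT2 in Mb (dashed line). Bars are absent on both sides of EHMT2, over a stretch of 5.13 Mb with 172 protein-coding genes.

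Among 20050 protein-coding genes, 19.0% had an HNRNPC peak and 59.2% a PABPC4 peak. Only 20 genes, or 0.0998%, had more than 20 of each, which is the value that put EHMT1 here and is not a result. In 8 of those 20, all on chromosome 21, most peaks carrying the gene's ID lay outside its annotated span, and EHMT1 was 1 of the other 12. EHMT1 ranked 20th by HNRNPC peaks, tied with 2 others, or below 11 genes once such misplaced IDs were set aside, a choice made after seeing the data. By PABPC4 peaks it ranked 221st. Length matters for such counts: there were 1472 protein-coding genes within 1.5 times its length, with a median of 0 HNRNPC and 5 PABPC4 peaks, and 4 of them had more HNRNPC peaks than EHMT1 and 83 more PABPC4 peaks. Per 10 kb, EHMT1 had 1.01 HNRNPC and 1.15 PABPC4 peaks, beside medians of 0.261 and 1.03 over genes with a peak.

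By the distance between log2(peaks + 1) of both proteins, the genes most like EHMT1 were ANKRD11 (20 HNRNPC and 29 PABPC4 peaks, distance 0.24), BCAR3 (27 and 26, 0.29) and SRGAP1 (17 and 28, 0.39). ANKRD11 stood just outside the limit that EHMT1 passed. EHMT2 shared its pair of zeros with 8101 other protein-coding genes, so the 3 named by the rule, A1BG, A1CF and A2M, are only the first in the alphabet.

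Other genes of H3K9 methylation were examined as a list of 26 writers, readers, erasers and partners. PABPC4 peaks were listed for all 26, beside 59.2% of protein-coding genes, and HNRNPC peaks for 16, beside 19.0%. None had more peaks of either protein than EHMT1, which was picked for its counts, so this ranking is not a result. The medians per gene were 1 HNRNPC and 7.5 PABPC4 peaks, beside 0 and 1 over all protein-coding genes. CDYL, a chromodomain reader of methylated H3K9, had 9 HNRNPC peaks, the tallest of 15 tags, and 13 PABPC4 peaks. KDM4B, a demethylase, had 7 HNRNPC peaks (tallest 48 tags), as did DNMT1, the maintenance DNA methyltransferase (tallest 66 tags). Most PABPC4 peaks were listed for ATF7IP, the partner of the methyltransferase SETDB1, with 24, followed by CBX5, the heterochromatin protein HP1-alpha, with 17, and ZNF644 with 15.

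The partners of the EHMT1 and EHMT2 complex differed in their counts. WIZ had no HNRNPC peak and 2 PABPC4 peaks, both in its 3′ UTR, the taller of 28 tags. ZNF644, another zinc finger partner, had 3 HNRNPC peaks of up to 9 tags and 15 PABPC4 peaks of up to 180 tags, 2 of them in the 3′ UTR. In a 3′ UTR segment, 3 of the 26 genes had an HNRNPC peak, beside 1.98% of protein-coding genes, and 22 had a PABPC4 peak, beside 48.7%. Length and expression of the genes were not adjusted for.

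**Figure D5:**
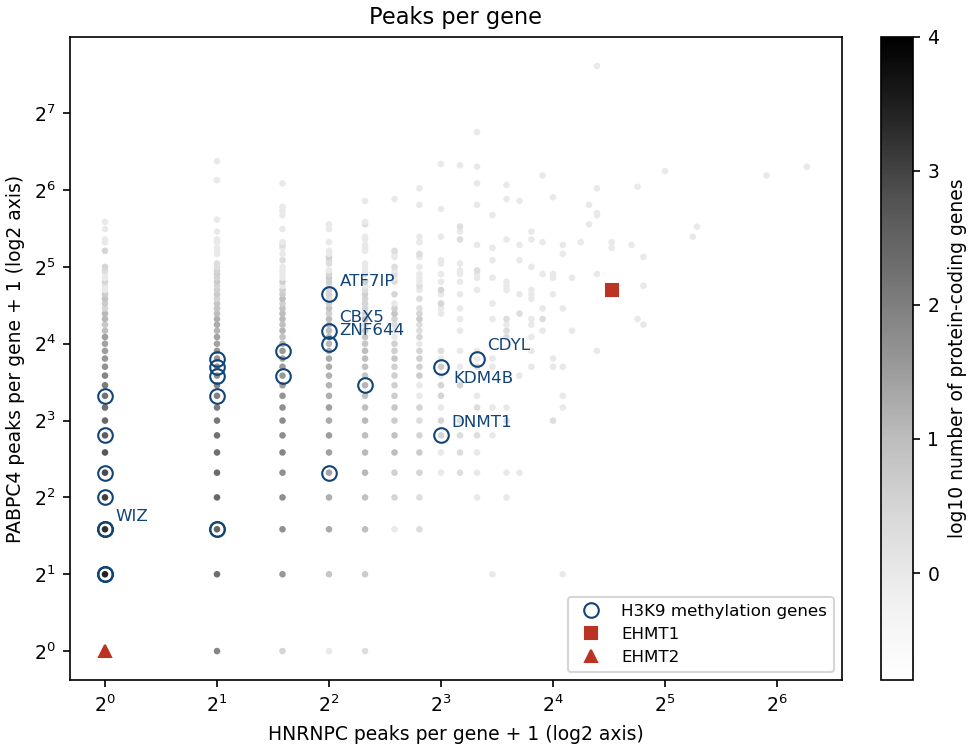
PABPC4 against HNRNPC peaks per protein-coding gene, each plus 1 on a log2 axis, without the 8 genes whose peaks lay outside their span. Gray points are shaded by the log10 number of genes, and circles are the 26 H3K9 methylation genes. EHMT1 (22 and 25 peaks), which was picked for its counts, stands to the right of all circles. EHMT2 is at 0 for both.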

How the data were processed

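The authors collapsed reads by molecular identifier (UMI-tools), trimmed them (cutadapt), aligned them to hg38 with BWA 0.7.17, pooled both replicates of a protein and searched the tags for peaks between valleys (CLIP Tool Kit). The deposited signal of each peak is its height in pooled unique tags, not scaled to depth. Library depth was not analysed here. The name of the deposited HNRNPC list gives HITS-CLIP where the labels give irCLIP, and which applies was not settled.

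Here each position was counted once (1281 and 6271 surplus entries for HNRNPC and PABPC4) and assigned by its center, on its strand, with GENCODE 44 protein-coding transcripts, in the order 3′ UTR, coding, 5′ UTR, non-coding exon, intron. Sequence came from hg38, and 0 peaks ran past a chromosome end. Alu-like matches came from blastn 2.17.0 (E-value limit 1e-05). Heights have exact Poisson and shares Wilson 95% intervals. Code was tested on simulated data. Sequences at some peaks are not reported here.

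Members and lists were chosen with earlier results of these data known. Named were both members with every peak, the 3 list genes with most peaks of each protein (ties to the taller peak), WIZ, ZNF644, and the 3 genes nearest to each member in peak counts. Alternatives covered p-value and height limits, transcript choice, windows, motifs and strand.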

Additional observations from a re-analysis of the deposited data

How the results depend on the processing

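Of 60 alternative values, 53 stayed within 1.5 times the reported count or distance, including all counts of EHMT1 and EHMT2 peaks. With the authors' p-value limited to 0.001, EHMT1 kept 17 HNRNPC and 24 PABPC4 peaks. The EHMT2 values among the 53 were 0 throughout, and no setting could move them, since the stretch around the gene held no peak. Overlaps counted at 0 likewise could not rise under settings that drop peaks or ask for a longer overlap. These values therefore say nothing of stability. Of the 60 values, 7 moved. With the reference transcript alone, 0 HNRNPC peaks of EHMT1 lay in 3′ UTR segments, against 3 with all transcripts, because the segments belong to other transcripts. Without A-rich PABPC4 peaks, the median distance from HNRNPC to PABPC4 peaks rose from 2304 to 8140 nt, as fewer peaks were left. A 20 nt window gave 7 A-rich PABPC4 peaks in place of 12, and a window of 100 nt on either side gave 5 peaks with a poly(A) signal in place of 3. A run of 4 U lay in 7 HNRNPC peaks, and adding the 50 nt before the peak gave 5, against 1. A match inside the peak itself, an alternative chosen after seeing the data, left 4 HNRNPC peaks in antisense and 17 PABPC4 peaks in sense Alu-like sequence, against 7 and 20. No paired analysis was possible because the replicates of each protein were pooled before peaks were called, and for the same reason no replicate could be left out. The lists hold peaks past a threshold, so a gene or end without a peak may still be bound below it, and heights cannot be compared between the proteins.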
